A study of Rattus norvegicus with 20 samples.

Results

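The genes described here encode proteins of synaptic vesicles and of the active zone, the patch of presynaptic membrane where vesicles fuse. They were chosen by symbol from the authors' annotated table of expressed probe sets: synapsins, synucleins, synaptotagmins, synaptophysin, synaptogyrins, Sv2 proteins, vesicular glutamate carriers, syntaxins and vesicle-associated membrane proteins, Snap25, their regulators, Rab3 proteins, scaffold proteins and endocytic proteins. In all, 76 probe sets of 51 genes were found, among 17191 annotated expressed and 31042 tested probe sets; 32 genes had 1 probe set and 19 had several. Syn1, Rims1, Unc13a and Bsn were not among them.

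The arrays measured RNA of rat subplate neurons, early-born cells under the cortical plate, taken from posterior neocortex of embryonic day 17 rats; they were captured on dishes coated with antibody against p75, a neurotrophin receptor. All groups were grown without serum in Neurobasal with B27 and chondroitin sulfate A. Cocultured coverslips were held on wax spacers above a layer of cortical feeder cells, made from the cells that did not stick during panning, for 24 h or 96 h. Control coverslips stood for the same times over wells with wax dots and medium but no cells. Each of the 4 groups had 5 arrays, labelled biological replicates 1 to 5, with RNA generally pooled from 6 coverslips, so glia or other cells carried through the panning were measured together with the neurons. No strain, sex or genotype was given. According to the design text, synapses of subplate neurons multiply between 24 h and 48 h above the feeder layer, and the question was which transcripts change with that treatment.

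At a presynaptic terminal, carriers load transmitter into vesicles, which are tethered by synapsins, docked with the help of Rab3 proteins and scaffold proteins, and fused by SNARE complexes of Snap25, a syntaxin and a vesicle-associated membrane protein. Synaptotagmins sense calcium, complexins and other regulators control SNARE assembly, Nsf takes the complexes apart, and dynamin, synaptojanin and endophilin retrieve the membrane. Much of this set is made by neurons well before contacts mature, and several of the syntaxins work in all cells.

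Values are the deposited ratios of each array to the median of that probe set over the 20 arrays. They do not give levels, so different genes cannot be ranked against each other, and signal over background is unknown. Changes are log2 differences with the standard error of a limma fit over all 31042 probe sets, 5 arrays against 5, and a change was called at an adjusted p (Benjamini-Hochberg) under 0.05. "Rose" and "fell" are used for called changes in this fit, which had no term for the replicate number. Counts at an unadjusted p under 0.05 were made for members and gene lists only, so no share of expressed probe sets stands beside them. Because same-numbered arrays deviated together, the result with the number as a block is also given where it changes the call of a printed difference; members it calls whose difference is not printed stand in the counts.

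The arrays of replicate 5 and of cocultured replicate 1 at 96 h stood apart. The interquartile range of log2 ratios over expressed probe sets was 1.07 on cocultured replicate 5 at 96 h, 0.949 on cocultured replicate 5 at 24 h and 0.652 on cocultured replicate 1 at 96 h, against 0.240 at the low end. The 18 spiked hybridisation controls, which are not RNA of the cells, had mean log2 ratios of -1.05 to 0.520 in controls and -0.341 to 1.36 in cocultures at 24 h. Whether the amount or quality of the cells' RNA moved these ratios was not tested. At 96 h the ranges were -1.03 to 0.497 and -0.007 to 1.62. The median of all expressed probe sets differed between cocultures and controls by -0.13 at 24 h and -0.26 at 96 h (log2). These quantities moved with coculture, so results are also given with the hybridisation controls as a covariate, with arrays centred on their expressed median, and without the 3 arrays of widest spread; which of these gives the cells' own change cannot be told apart within this design.

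**Figure D1:**
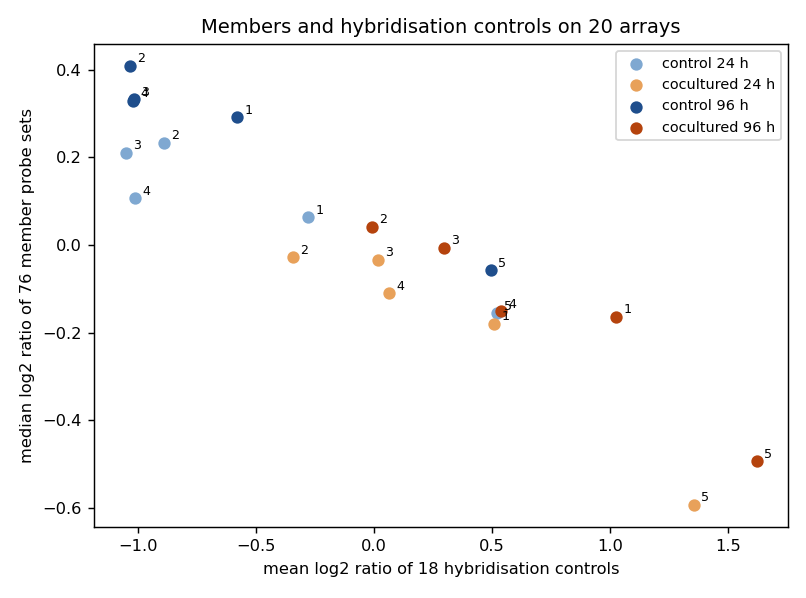
Each point is 1 array, numbered by replicate and coloured by group; the x axis is the mean log2 ratio of the 18 hybridisation controls and the y axis the median log2 ratio of the 76 members. The members' median lay between -0.593 and 0.041 in cocultures and between -0.156 and 0.409 in controls, with replicate 5 lowest in all 4 groups.

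Markers of other cells moved too. The 18 probe sets of general neuronal markers averaged 0.11 in controls and -0.21 in cocultures at 24 h (mean log2 ratio over arrays). At 96 h the averages were 0.20 and -0.36. Of the 18, limma called 5 lower at 96 h (27.8%), a share near the array-wide 30%, so this count does not set neuronal markers apart. At 24 h it called none, where 3 had an unadjusted p under 0.05. For the lists that follow, array-wide shares called higher were 1.79% at 24 h and 8.52% at 96 h. Those called lower were 3.48% and 30%. Radial glia and progenitor markers, 5 probe sets, averaged between -1.84 and -0.574 on the control arrays and between 0.439 and 1.17 on the cocultured arrays at 24 h, and 4 rose. At 96 h the ranges were -1.79 to -1.35 and 0.549 to 1.23, and 5 rose. Of 8 oligodendrocyte lineage probe sets 4 rose at either time, and of 12 astrocyte probe sets 2 rose at 24 h and 5 at 96 h, with 2 lower. Of 7 probe sets of dividing cells 4 rose at 24 h, while 3 rose and 2 fell at 96 h. For fibroblast and vascular markers 1 of 3 rose at 96 h, and for interneuron markers 1 of 6 rose at both times and 2 fell at 96 h. The microglial markers listed were not among the annotated expressed probe sets. Ratios cannot show whether any of these markers is near background. In RNA of whole coverslips, fewer neurons among the cells and less RNA per neuron cannot be told apart, and the part of these cell types in the results below was not tested.

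Promoters are shown for 4 genes whose change at 96 h was called in the fits without and with the block, with the covariate and with centred arrays: Syn2, the member with the largest called rise, Slc17a6 and Syt4, among those with the largest falls, and Rab3d, lower by the same amount at both times at its probe set 1370055_at only. They are RefSeq sequences of build GRCr8, from 250 bases before to 50 after the annotated start, written 5′ to 3′ on the gene's strand. Capitals mark GGGCGG (the GC box bound by Sp-family factors) or CCGCCC on the other strand, and TGACG (the half-site of the cAMP response element) or CGTCA on the other strand. Syn2 lies at chr4:149858669-149858968 on the plus strand, Slc17a6 at chr1:110348197-110348496 on the plus strand, Syt4 at chr18:23320814-23321113 on the minus strand and Rab3d at chr8:28725218-28725517 on the minus strand.
Syn2: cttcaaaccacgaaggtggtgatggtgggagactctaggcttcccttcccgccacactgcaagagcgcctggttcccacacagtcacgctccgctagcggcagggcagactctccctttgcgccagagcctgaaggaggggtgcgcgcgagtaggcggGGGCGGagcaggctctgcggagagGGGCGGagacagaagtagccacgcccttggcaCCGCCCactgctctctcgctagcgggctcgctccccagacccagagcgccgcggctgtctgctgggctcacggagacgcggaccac
Slc17a6: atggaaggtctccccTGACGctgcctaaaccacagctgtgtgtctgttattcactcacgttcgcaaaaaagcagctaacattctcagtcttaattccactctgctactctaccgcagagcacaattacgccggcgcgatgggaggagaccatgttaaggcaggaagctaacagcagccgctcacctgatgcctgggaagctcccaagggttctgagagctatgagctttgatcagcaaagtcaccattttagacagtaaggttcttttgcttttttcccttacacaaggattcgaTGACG
Syt4: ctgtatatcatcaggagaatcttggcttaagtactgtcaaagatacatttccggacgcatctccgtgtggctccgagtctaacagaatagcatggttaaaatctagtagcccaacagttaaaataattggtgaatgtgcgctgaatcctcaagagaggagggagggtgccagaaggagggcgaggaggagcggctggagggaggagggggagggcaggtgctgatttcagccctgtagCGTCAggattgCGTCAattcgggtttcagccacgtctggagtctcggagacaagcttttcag
Rab3d: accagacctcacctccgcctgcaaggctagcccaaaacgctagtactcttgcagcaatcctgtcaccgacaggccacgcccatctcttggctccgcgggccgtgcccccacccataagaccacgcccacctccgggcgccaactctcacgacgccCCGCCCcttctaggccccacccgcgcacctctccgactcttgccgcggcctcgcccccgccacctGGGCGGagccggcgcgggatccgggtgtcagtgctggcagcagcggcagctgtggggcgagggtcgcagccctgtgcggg

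The Syn2 promoter held 3 GC boxes and the Rab3d promoter 2, with no half-site, whereas Slc17a6 and Syt4 held 2 half-sites each and no GC box. A promoter was matched for 40 of the 51 genes. A GC box stood in 30 of them (75.0%), against 34.9% of all 27457 RefSeq promoters of that length and 64.5% of the 6433 belonging to genes in the annotated expressed table. The half-site stood in 18 (45.0%), against 22% and 34.6%. The whole palindrome TGACGTCA, which contains the half-site, stood in 2 of 40, against 1.91% and 3.72%. These are matches of letters and not sites shown to be bound.

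After 24 h above the feeder layer the number of members called depended on whether the replicate number was in the fit. Without it limma called 3 of 76 lower (3.95%) and 0 higher, where 1.79% of annotated expressed probe sets rose and 3.48% fell. At an unadjusted p under 0.05, 27 members were lower and 3 higher, with no share of expressed probe sets to set beside them. With the replicate block 37 were called lower (48.7%) and 4 higher, where 27.2% of expressed probe sets were lower and 10.9% higher. In all 5 same-numbered pairs the coculture lay below its control for 43 members and above it for 3, against 32% and 12% of expressed probe sets. The median change of the members was -0.33 and 77.6% of them lay below 0, against 63.9% of expressed probe sets. With the covariate 4 rose and 2 fell, against 5.72% and 2.8%, and the members' median was -0.045. Without the 3 arrays of widest spread 4 rose and 6 fell, against 4.69% and 5.12%; without the 4 arrays numbered 5 there were 3 rises and 26 falls, against 7.78% and 15.8%.

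After 96 h more members were called. Of the 76 probe sets 5 rose and 32 fell, or 6.58% and 42.1%, where 8.52% of expressed probe sets rose and 30% fell. The members' median change was -0.44 and 78.9% lay below 0, against 68.0% of expressed probe sets. The block gave 10 rises and 50 falls, against 16.8% and 47.1%. Centred arrays gave 9 rises and 25 falls, against 16.2% and 22.1%, with a median of -0.20; at 24 h the centred median was -0.19. The covariate left 8 rises and 7 falls, against 9% and 6.6%, with a median of -0.021. Without the 3 arrays of widest spread 6 rose and 22 fell, against 9.03% and 19.4%, and without the 4 arrays numbered 5 there were 8 rises and 45 falls, against 15.2% and 39.5%. With the covariate and the block together no member was called at either time. No share of expressed probe sets is given for that fit, so this count does not show whether members differ from other probe sets. In the same-numbered pairs 47 members were lower in all 5 and 7 higher, against 41.2% and 13.9% of expressed probe sets.

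Array by array, the 5 cocultured values lay entirely below the 5 control values in 3 members at 24 h and 15 at 96 h, and entirely above in 0 and 1. Over expressed probe sets 5.03% lay below and 2.07% above at 24 h, and 18.1% and 4.23% at 96 h. The members that fell in all 4 fits (no block, block, covariate, centred) included Rab3d at 24 h and Rab3d, Stx4, Stx11, Synj2bp, Slc17a6 and Syt4 at 96 h, in each case through 1 probe set. Those that rose in all 4 at 96 h were 2 probe sets of Syn2 and 1 of Stx7. Of the 37 calls at 96 h, centred arrays ended 7, those of Vamp2, Stx5, Stx8, Pclo, Syn3, Syt12 and 1 probe set of Synj2bp. Cyclic loess, which aligns the arrays by a smooth curve over signal, also ended 7, those of Stxbp3, Stx7, Vamp4, Pclo, Syt11 and both of Syn2. Leaving out the 3 arrays of widest spread ended 13, and the covariate 27. Among the 13 were calls of Nsf, Vamp2, Stx5, Stx8, Stx12, Vamp4, Pclo, Sncb, Syn3, Syt11, Sv2c and Syngr3.

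**Figure D2:**
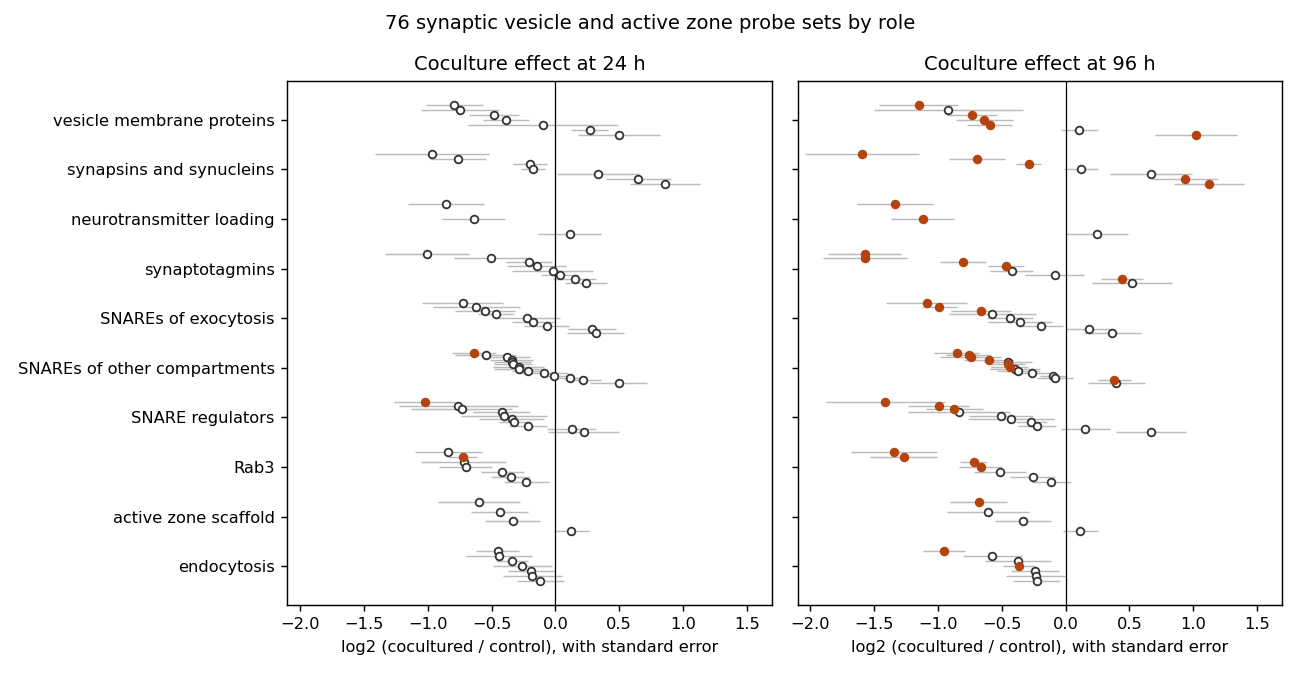
Each point is 1 of the 76 probe sets, placed by its log2 difference between cocultured and control arrays at 24 h (left) and 96 h (right) with its standard error, in rows by role; filled points passed an adjusted p of 0.05. At 24 h 3 points are filled, all below 0, and at 96 h 37 are, 32 of them below 0.

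Synapsin II rose at 96 h, while beta-synuclein and 1 probe set of synapsin III fell. Synapsin II, encoded by Syn2, coats vesicles and holds them in the reserve pool. Its probe set 1370431_at read 0.814, 0.731, 0.952, 0.659 and 0.839 in controls and 1.64, 1.95, 2.15, 1.46 and 0.613 in cocultures at 24 h, replicates in order. At 96 h it read 0.966, 0.642, 0.837, 0.721 and 1.04 in controls and 1.98, 2.47, 2.29, 1.65 and 1.03 in cocultures. Cocultured replicates 1 to 4 stood above every control at both times, and cocultured replicate 5 stood among or below the controls. The change was 0.86 ± 0.28 at 24 h (adjusted p = 0.0991, or 0.0102 with the block) and 1.12 ± 0.28 at 96 h (adjusted p = 0.00704). A second probe set, 1388811_at, was higher by 0.65 ± 0.26 at 24 h (adjusted p = 0.183, or 0.00818 with the block) and rose by 0.94 ± 0.26 at 96 h (adjusted p = 0.0122). The third, 1369482_a_at, differed by 0.67 ± 0.32 at 96 h (adjusted p = 0.106, or 0.0165 with the block). With the covariate all 3 were called at both times, at 1.12, 0.96 and 0.88 at 24 h and 1.53, 1.42 and 1.51 at 96 h in the order given. None of the single arrays left out ended the calls of the first and second at 96 h, but cyclic loess did, at 0.58 (adjusted p = 0.381) and 0.42 (adjusted p = 0.512).

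Sncb, which encodes beta-synuclein, a protein of presynaptic terminals, fell by 0.70 on the log2 scale at 96 h (adjusted p = 0.0245), a call lost without control replicate 2, 3 or 4 or cocultured replicate 5 at 96 h (adjusted p 0.0527 to 0.0768). With the covariate the 96 h change was -0.016 (adjusted p = 0.963); at 24 h it differed by -0.76 ± 0.22 (adjusted p = 0.0626, or 1.94e-06 with the block). The Syn3 probe set 1372926_at fell by 0.29 at 96 h (adjusted p = 0.0292), lost without control replicate 1, 3 or 4 or cocultured replicate 1, 4 or 5 (adjusted p 0.0515 to 0.0887) and with centred arrays (-0.051) or the covariate (-0.20), and its other probe set, 1389836_a_at, differed by 0.12 ± 0.13.

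Both carriers that load glutamate into vesicles fell at 96 h. Slc17a6, the vesicular glutamate transporter VGLUT2, read 1.04, 1.48, 1.18, 0.78 and 1.44 in controls and 0.829, 0.956, 0.779, 0.442 and 0.82 in cocultures at 24 h. Its 96 h values were 1.25, 2.27, 1.26, 1.38 and 1.52 in controls and 0.541, 1.18, 0.739, 0.684 and 0.482 in cocultures, with no overlap. It fell by 1.12 on the log2 scale at 96 h (SE 0.25, adjusted p = 0.00362) and by nearly as much with the covariate, at -0.98 (adjusted p = 0.0421). At 24 h the difference was -0.64 ± 0.25 (adjusted p = 0.177, or 0.00817 with the block).

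Slc17a7, VGLUT1, read 1.95, 2.53, 2.64, 1.93 and 0.989 in controls and 0.729, 0.971, 0.968, 0.647 and 0.543 in cocultures at 96 h. The highest cocultured value lay just under the lowest control, that of replicate 5. The change was -1.34 ± 0.30 (adjusted p = 0.00395), and -0.39 with the covariate (adjusted p = 0.164). At 24 h it was -0.86 ± 0.30 (adjusted p = 0.132, or 2.01e-05 with the block). Slc17a5, sialin, an exporter of sialic acid from lysosomes that shares the family name, differed by 0.24 ± 0.25 at 96 h (adjusted p = 0.421) and by 0.85 with the covariate (adjusted p = 0.0166).

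Among vesicle membrane proteins, 4 of 7 probe sets fell at 96 h and 1 rose, where 30% of expressed probe sets fell and 8.52% rose. Sv2a, a glycoprotein of nearly all synaptic vesicles, fell at both of its probe sets, with changes of -1.15 ± 0.31 at 1368682_at (adjusted p = 0.0106) and -0.60 ± 0.18 at 1383399_at (adjusted p = 0.0186, or 0.0521 without cocultured replicate 5 at 96 h). With the covariate the changes were -0.15 and -0.19. At 24 h they were -0.75 and -0.39, called with the block (adjusted p = 1.06e-06 and 0.0129). Syp, synaptophysin, fell by 0.73 on the log2 scale (SE 0.19, adjusted p = 0.0104), and differed by -0.48 ± 0.19 at 24 h (adjusted p = 0.194, or 0.000234 with the block); with the covariate the 96 h change was -0.11. The remaining fall was that of Syngr3, a synaptogyrin, at -0.64, or 0.030 with the covariate (adjusted p = 0.937); at 24 h it differed by -0.79 (adjusted p = 0.0580, or 4.51e-05 with the block).

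Sv2c, the Sv2 protein of a restricted set of neurons, was the member of this role that rose. It read 0.802, 0.677, 0.566, 0.726 and 1.46 in controls and 1.89, 1.001, 1.299, 1.37 and 3.36 in cocultures at 96 h, and replicate 5 was highest in both groups. The rise was 1.02 ± 0.32 (adjusted p = 0.0244), lost without control replicate 2, 3 or 4 or cocultured replicate 1 or 5 (adjusted p 0.0554 to 0.0812), and the change was -0.075 with the covariate. At 24 h it was 0.50, called with the block (adjusted p = 0.000851).

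Of the 8 synaptotagmin probe sets 4 fell and 1 rose at 96 h, where 30% of expressed probe sets fell and 8.52% rose. Syt4, a synaptotagmin of dense-core and secretory vesicles, read 1.47, 2.34, 2.204, 2.15 and 0.86 in controls and 0.481, 0.726, 0.516, 0.463 and 0.721 in cocultures at 1387662_at. All cocultured arrays lay below all controls. It fell by 1.57 (SE 0.29, adjusted p = 0.000887), and the change was -0.87 with the covariate (adjusted p = 0.0323). With the covariate and the block together it was 0.31 (adjusted p = 0.982). At 24 h it read 1.09, 1.49, 1.63, 1.71 and 0.819 in controls and 0.565, 1.51, 1.06, 0.935 and 0.75 in cocultures, overlapping, with a difference of -0.51 ± 0.29 (adjusted p = 0.360). Its second probe set, 1375877_at, differed by 0.15 ± 0.17 at 24 h and -0.42 ± 0.17 at 96 h (adjusted p = 0.0583, or 0.00299 with the block).

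Syt5, a calcium-binding synaptotagmin, read 1.96, 3.36, 2.75, 2.43 and 0.937 in controls and 0.468, 0.998, 0.912, 0.777 and 0.543 in cocultures at 96 h, overlapping only through control replicate 5. It fell by 1.57 (SE 0.33, adjusted p = 0.00251), with -0.49 under the covariate (adjusted p = 0.0509), and at 24 h differed by -1.01 ± 0.33 (adjusted p = 0.105, or 2.10e-05 with the block). Syt1, the calcium sensor of fast release, was not called at either time: at 96 h its probe sets differed by -0.09 ± 0.23 and 0.52 ± 0.32, the second with an adjusted p of 0.186, or 0.00660 with the block. Syt11, which does not bind calcium, rose by 0.44 at 96 h (adjusted p = 0.0497); 15 of the 20 single arrays left out ended the call (adjusted p 0.0509 to 0.134), and the change was 0.016 with the covariate and 0.14 with cyclic loess. The remaining falls were of Syt6, at -0.80, or -0.60 with the covariate (adjusted p = 0.0760), and of Syt12, which is described with the changes over time.

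**Figure D3:**
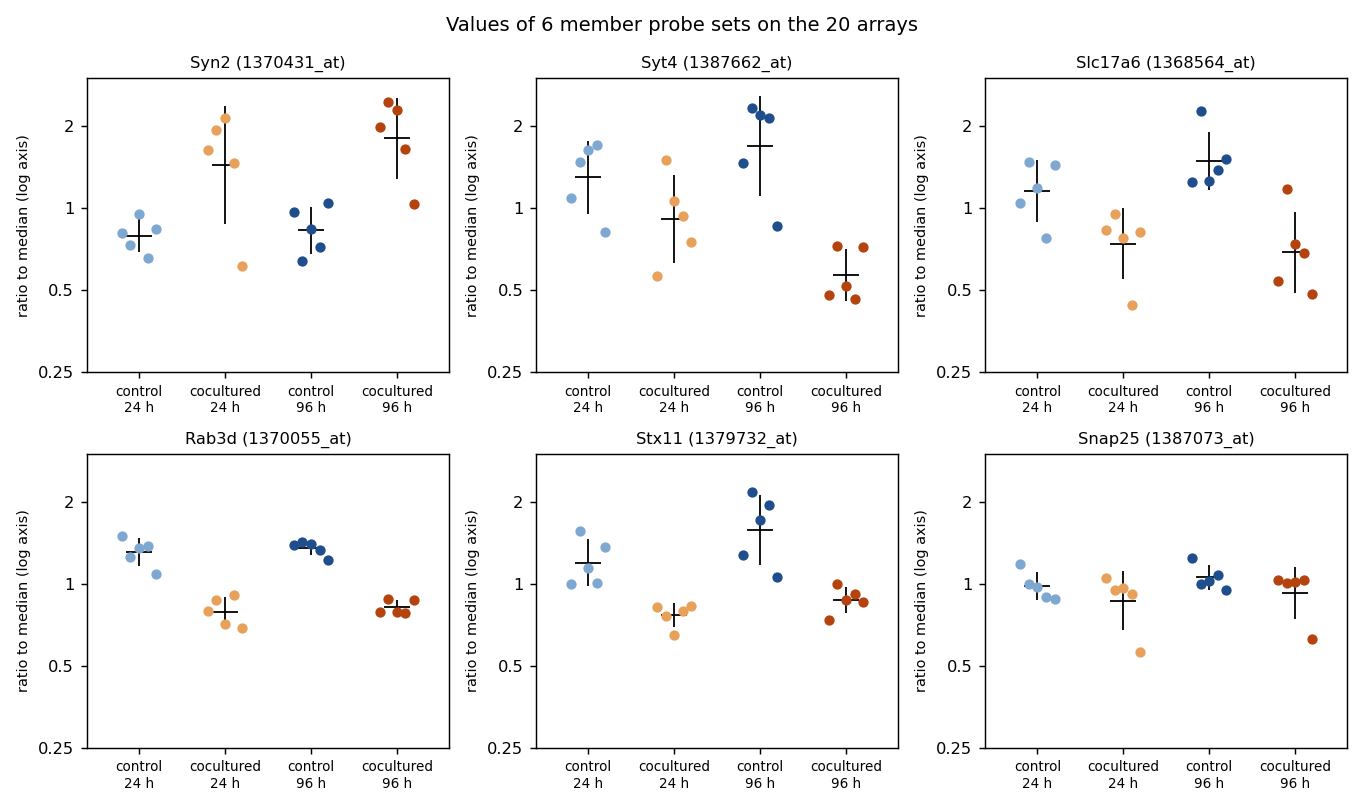
Deposited ratios of 6 probe sets on a log axis, a point per array in the order of replicates 1 to 5 within each group, with the geometric mean and 1 SD on the log2 scale (n = 5). Rab3d and Stx11 are lower in all cocultured arrays at both times, Syt4 and Slc17a6 at 96 h, Syn2 is higher in cocultured replicates 1 to 4, and Snap25 overlaps apart from the low cocultured arrays of replicate 5.

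Of 9 probe sets for SNAREs of vesicle fusion 3 fell and 0 rose at 96 h. The share that fell was near the 30% of expressed probe sets. Snap25, the plasma membrane SNARE that supplies helices from both of its ends, read 1.25, 1, 1.03, 1.08 and 0.952 in controls and 1.03, 1.01, 1.02, 1.03 and 0.625 in cocultures at 96 h. Cocultured replicates 1 to 4 lay within the control range. It differed by -0.18 ± 0.17 at 24 h (adjusted p = 0.568) and by -0.19 ± 0.17 at 96 h (adjusted p = 0.357). Vamp2, the vesicle SNARE of the same complex, fell by 0.67 at 96 h (adjusted p = 0.0382). That call was lost without control replicate 1, 2, 3 or 4 or cocultured replicate 1, 4 or 5 (adjusted p 0.0547 to 0.121), and with centred arrays it was -0.43 (adjusted p = 0.0536); with the covariate the change was 0.12. At 24 h Vamp2 differed by -0.55 ± 0.24 (adjusted p = 0.221, or 8.71e-05 with the block).

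Stx1a, the syntaxin that pairs with Snap25, was not called: its probe sets differed at 96 h by -0.36 ± 0.25 and -0.58 ± 0.34 (adjusted p = 0.255 and 0.176). The second, 1387360_at, was called lower with the block at both times (adjusted p = 7.94e-05 and 4.78e-05) and called higher at 96 h with the covariate, at 0.59 (adjusted p = 0.00198). Stx4, a syntaxin of the plasma membrane of many cell types, read 1.63, 2.11, 1.68, 1.99 and 1.49 in controls and 1.09, 0.947, 0.881, 0.665 and 0.917 in cocultures at 96 h. The groups did not overlap. It fell by 0.99 (SE 0.14, adjusted p = 7.73e-05), with -0.92 under the covariate (adjusted p = 0.000972), while at 24 h it differed by -0.47 ± 0.14 (adjusted p = 0.0700, or 0.00971 with the block).

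SNAREs of other compartments had 6 falls and 1 rise among 14 probe sets at 96 h, where 30% of expressed probe sets fell and 8.52% rose. Stx11, a syntaxin best known from immune cells, fell at both times. At 24 h it read 0.999, 1.57, 1.14, 1.005 and 1.36 in controls and 0.826, 0.765, 0.647, 0.794 and 0.83 in cocultures, with no overlap, a change of -0.64 ± 0.17 (adjusted p = 0.0490). Any of 16 single arrays left out ended that call (adjusted p 0.0517 to 0.163), as did centred arrays, cyclic loess and the covariate (adjusted p = 0.161, 0.0691 and 0.101). At 96 h the change was -0.85 ± 0.17 (adjusted p = 0.00221), and -0.68 with the covariate (adjusted p = 0.0381).

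Stx7, a syntaxin of late endosomes, rose at 1397565_at, which read 0.931, 0.851, 0.801, 0.722 and 0.766 in controls and 1.06, 1.15, 1.17, 0.948 and 0.977 in cocultures at 96 h. This was the member whose cocultured arrays all lay above the controls. The rise was 0.38 ± 0.13 (adjusted p = 0.0318), lost without control replicate 2, 3 or 4 or cocultured replicate 1 or 3 (adjusted p 0.0541 to 0.0834) or with cyclic loess (0.25, adjusted p = 0.233). Its other probe set, 1387857_at, differed by -0.40 ± 0.20 (adjusted p = 0.118, or 0.00201 with the block). The remaining falls, between -0.76 and -0.44, were of Stx5, Stx8, Stx12, Stx18 and Vamp4, each through 1 probe set, and none was called with the covariate. For these, and for Syngr3, Syt6 and Stxbp3, calls lost without single arrays were not listed, so their stability is not shown.

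Among the proteins that control SNAREs, 3 of 10 probe sets fell at 96 h, the same share as the 30% of expressed probe sets. Nsf, the ATPase that recycles SNAREs, had 4 probe sets that disagreed in size and sign. At 96 h 1369689_at fell by 1.41 (SE 0.47, adjusted p = 0.0290), a call lost without control replicate 1, 2, 3 or 4 or cocultured replicate 1, 4 or 5 (adjusted p 0.0507 to 0.0888), and the others differed by -0.83, -0.43 and 0.15, of which the first and second were called with the block (adjusted p = 0.000992 and 0.00561). With the covariate 1369689_at changed by 0.14 and 1372528_at was called higher at 0.67 (adjusted p = 0.0164). Stxbp3, a syntaxin-binding protein of many cell types, also fell, at -0.87, but not with the covariate (-0.28, adjusted p = 0.403) or cyclic loess (-0.14, adjusted p = 0.503).

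The complexins clamp and promote fusion. Cplx1 differed by -0.22 ± 0.15 and -0.51 ± 0.25 at 96 h (adjusted p = 0.227 and 0.114, the second 0.000789 with the block). Cplx2, singled out after its values were seen, read 0.618, 0.993, 1.04, 0.843 and 0.434 in controls and 0.808, 1.52, 1.29, 1.44 and 1.03 in cocultures at 96 h. Each cocultured array lay above the control of its number. The difference was 0.67 ± 0.28 (adjusted p = 0.0664, or 0.000539 with the block), and 1.48 with the covariate (adjusted p = 2.89e-05). At 24 h it was 0.22 ± 0.28 (adjusted p = 0.666) and 0.75 with the covariate (adjusted p = 0.00969).

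Rab3 proteins are GTPases that bring vesicles to the membrane. At 96 h 4 of their 7 probe sets fell, where 30% of expressed probe sets fell. Rab3a, the main form of synaptic vesicles, fell at both probe sets, with changes of -1.34 ± 0.33 (adjusted p = 0.00727) and -0.66 ± 0.17 (adjusted p = 0.00828). At 24 h the differences were -0.72 ± 0.33 and -0.42 ± 0.17 (adjusted p = 0.264 and 0.196, or 0.00609 and 0.00116 with the block), and with the covariate those at 96 h were -0.36 and -0.21. Rab3c read 1.05, 2.62, 1.84, 2.15 and 1.299 in controls and 0.791, 0.704, 0.663, 0.677 and 0.699 in cocultures at 96 h, without overlap, and fell by 1.27 (SE 0.26, adjusted p = 0.00238), or -0.66 with the covariate (adjusted p = 0.0985). At 24 h it differed by -0.84 ± 0.26 (adjusted p = 0.0881, or 0.00243 with the block).

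Rab3d, known from granules of secretory cells, fell at both times. At 1370055_at it read 1.498, 1.25, 1.35, 1.38 and 1.09 in controls and 0.798, 0.872, 0.712, 0.911 and 0.686 in cocultures at 24 h. The 96 h values were 1.395, 1.43, 1.399, 1.33 and 1.22 in controls and 0.788, 0.878, 0.788, 0.784 and 0.876 in cocultures. The groups overlapped at neither time. It fell by 0.72 at both times (SE 0.11, adjusted p = 0.000423 and 0.000143), with -0.63 and -0.58 under the covariate (adjusted p = 0.000638 and 0.00238). Its other probe sets differed by -0.70 ± 0.20 and -0.35 ± 0.15 at 24 h and by -0.51 ± 0.20 and -0.11 ± 0.15 at 96 h, none called (adjusted p 0.0586 to 0.559). With the block both were called at 24 h (adjusted p = 0.000195 and 0.0174) and the first at 96 h (adjusted p = 0.00107). Rab3b is taken up with the changes over time.

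The active zone scaffold was represented by 4 probe sets. Pclo, Piccolo, a giant protein of the active zone, fell by 0.68 at 96 h (adjusted p = 0.0290), lost without control replicate 1, 2, 3 or 4 or cocultured replicate 5 (adjusted p 0.0501 to 0.0924). Centred arrays, cyclic loess and the covariate ended the call too, at -0.44, -0.50 and -0.36 (adjusted p = 0.0875, 0.0794 and 0.440), and with the covariate and the block the change was 0.56. Rims2, which links Rab3 to the release site, differed by 0.12 ± 0.14 at both times (adjusted p = 0.620 and 0.489). Ppfia2, liprin-alpha-2, differed at 96 h by -0.33 ± 0.22 and -0.61 ± 0.32 (adjusted p = 0.215 and 0.134, the second 0.0107 with the block).

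In the endocytic role 2 of 7 probe sets fell at 96 h, near the 30% of expressed probe sets. Both were of Synj2bp, a protein of the mitochondrial outer membrane that binds synaptojanin 2 and not a vesicle protein itself. They were 1368041_at, which fell by 0.96 (SE 0.17, adjusted p = 0.000612, and -0.53 with the covariate at an adjusted p of 0.0155), and 1368040_at, which fell by 0.36 (adjusted p = 0.0326), the latter lost without replicate 2 or 4 of either group at 96 h (adjusted p 0.0559 to 0.0967) and with centred arrays (-0.13) or the covariate (-0.28). Dnm1, the neuronal dynamin, differed by -0.18 ± 0.23 at 24 h and -0.23 ± 0.23 at 96 h (adjusted p = 0.672 and 0.412, or 0.0952 and 0.0164 with the block). Synj1, synaptojanin 1, differed at 96 h by -0.24 ± 0.19 and -0.23 ± 0.18, and Sh3gl2, endophilin A1, by -0.37 ± 0.26. None of these was called without the block; with it 1370070_at of Synj1 and Sh3gl2 were called (adjusted p = 0.0274 and 0.00550).

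**Figure D4:**
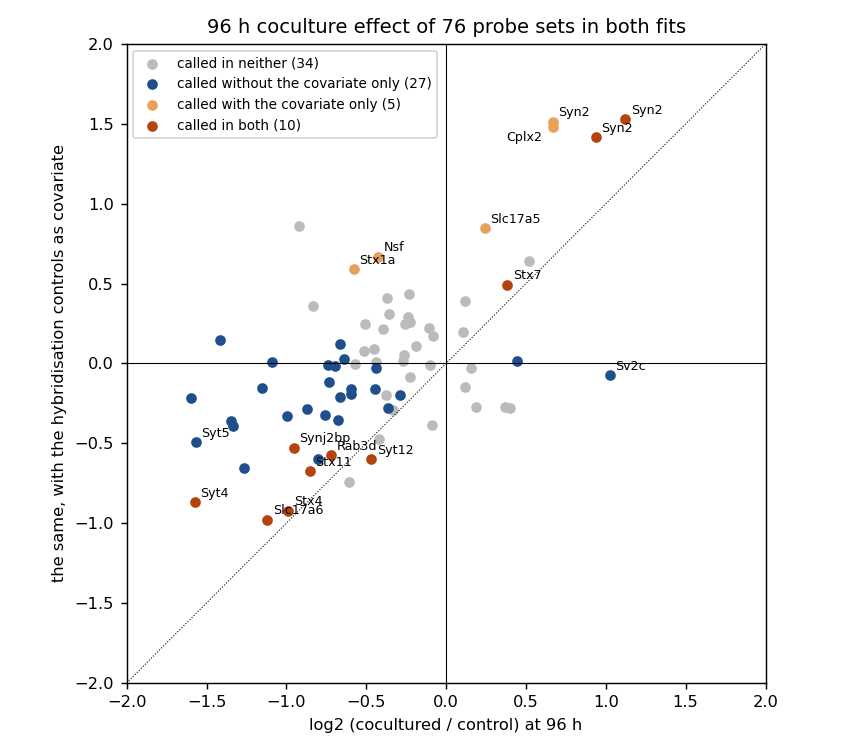
Each point is 1 of the 76 probe sets at 96 h; the x axis is the log2 difference between cocultured and control arrays and the y axis the same with the mean of the hybridisation controls as a covariate, the dotted line marking equal values. Of 37 probe sets called without the covariate 10 stayed called with it and 27 did not, and 5 were called with it alone.

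Of the genes with several probe sets, 7 of 19 had members of opposite sign at 96 h and 6 at 24 h. In the blocked fit, 35 probe sets fell at both times, of 37 that fell at 24 h and 50 at 96 h, and 4 rose at both, of 4 and 10; over expressed probe sets 25.5% fell and 9.11% rose at both times.

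Time alone moved few members. Between 24 h and 96 h in controls 1 of 76 rose and 0 fell by limma, where 0.227% of expressed probe sets were called in either direction. At an unadjusted p under 0.05, 4 were higher and 1 lower. With the block 5 rose and 1 fell, against 4.04%, and without the 4 arrays numbered 5 there were 3 calls, against 1.88%. The members' median change was 0.13 and 76.3% lay above 0, against 52.7% of expressed probe sets. The call was Stx4, which read 1.21, 1.19, 1.06, 1.05 and 0.904 at 24 h and the 96 h control values given above. It rose by 0.71 (SE 0.14, adjusted p = 0.0432); 14 of the 20 single arrays left out ended the call (adjusted p 0.0515 to 0.169), as did centred arrays and cyclic loess (adjusted p = 0.126 and 0.143), and the groups did not overlap.

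Rab3b is a Rab3 form of endocrine cells and some neurons, and its changes over time were singled out after their values were seen. It read 0.699, 0.945, 1.04, 0.993 and 0.653 at 24 h and 1.37, 1.57, 1.699, 1.67 and 1.01 at 96 h in controls. In cocultures it read 0.59, 0.806, 0.832, 0.789 and 0.646 and then 1.31, 1.35, 1.26, 1.32 and 0.844. It was higher at 96 h in every replicate of either condition, by 0.75 ± 0.18 in controls (adjusted p = 0.106, or 0.000344 with the block) and 0.73 ± 0.18 in cocultures (adjusted p = 0.0525, or 0.000131 with the block). With the covariate both were called, at 0.72 and 0.87. Its coculture differences were -0.23 ± 0.18 and -0.26 ± 0.18, and the second was called with the block (adjusted p = 0.0299).

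Syt12, singled out after its values were seen, lacks calcium binding and read 0.996, 0.807, 1.04, 0.779 and 0.978 at 24 h and 1.63, 1.498, 1.64, 1.52 and 1.101 at 96 h in controls. The change over time was 0.68 ± 0.14 (adjusted p = 0.0673, or 0.00848 with the block). In cocultures it was 0.18 ± 0.14 (adjusted p = 0.647), and at 96 h Syt12 was lower in cocultures, by -0.47 ± 0.14 (adjusted p = 0.0218), a call lost without control replicate 3 or 4 or cocultured replicate 4 (adjusted p 0.0508 to 0.0592) or with centred arrays (-0.23). With the covariate it was -0.60, and with the covariate and the block 0.18. With the block Vamp2 and 1387360_at of Stx1a were also higher with time in controls, at 0.35 and 0.38 (adjusted p = 0.0303 and 0.0351), and 1397565_at of Stx7 lower, at -0.40 (adjusted p = 0.0216).

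**Figure D5:**
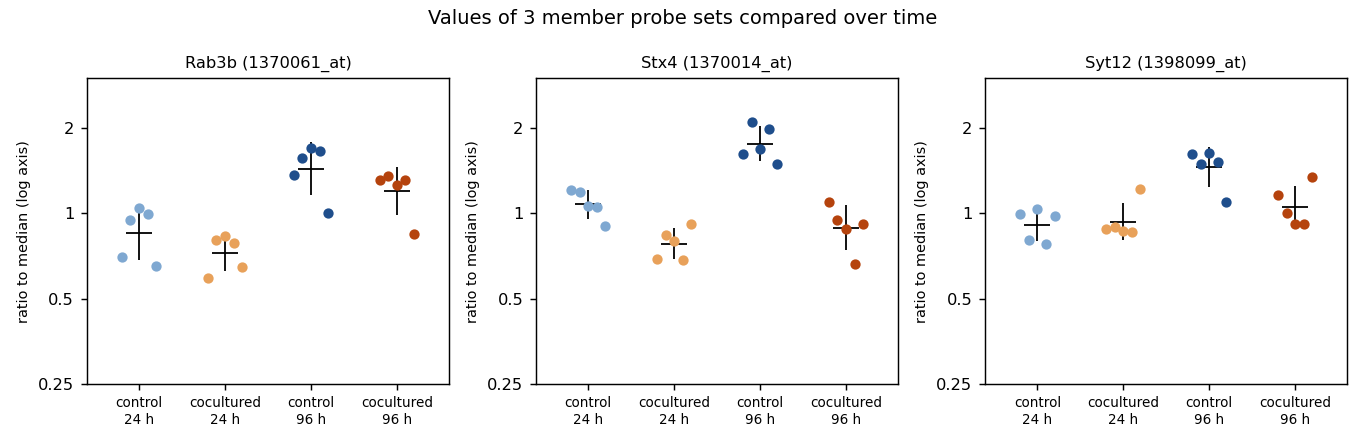
Deposited ratios of Rab3b, Stx4 and Syt12 on a log axis, a point per array in the order of replicates 1 to 5, with the geometric mean and 1 SD on the log2 scale (n = 5). Rab3b is higher at 96 h in both conditions, while Stx4 and Syt12 are highest in controls at 96 h.

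In cocultures limma called 0 members over time, against 1.63% of expressed probe sets. At an unadjusted p under 0.05, 1 was higher and 4 lower. The block gave 6 rises and 4 falls, against 20%, and leaving out the 4 arrays numbered 5 gave 2 calls, against 11%. The difference between the coculture effects at 96 h and 24 h was called for 0 members, against 0.0291% of expressed probe sets. At an unadjusted p under 0.05, 0 members lay above 0 and 6 below. With the block 4 were called, against 5.07%: Sv2c upward at 0.53 (adjusted p = 0.0439), and downward Synj2bp 1368041_at at -0.50 (adjusted p = 0.0380), Sv2a 1368682_at at -0.41 (adjusted p = 0.0426) and Syt4 1375877_at at -0.57 (adjusted p = 0.0499). More members were called at 96 h than at 24 h, but without the block no single member was shown to differ between the times.

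Other genes of the vesicle cycle were taken from lists that hold no member. Of 41 probe sets for clathrin coats and vesicle recycling (27 genes) limma called 0 at 24 h, with 1 higher and 10 lower at an unadjusted p under 0.05, and 1 rose (2.44%) and 20 fell (48.8%) at 96 h, with medians of -0.29 and -0.41. With centred arrays 2 rose and 14 fell at 96 h, and with the covariate 4 rose and 1 fell. Of 58 probe sets for priming, docking and other vesicle helpers (34 genes) 0 rose and 4 fell at 24 h, with 6 higher and 9 lower at an unadjusted p under 0.05, and 6 rose (10.3%) and 17 fell (29.3%) at 96 h, shares near the 8.52% and 30% of expressed probe sets, with medians of -0.14 and -0.25. At 96 h centred arrays gave 12 rises and 11 falls with a median of -0.012, and the covariate 5 and 2 with a median of -0.017. The general neuronal markers had medians of -0.40 and -0.55, and 0.11 at 96 h with the covariate.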

How the data were processed

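RNA of 20 coverslip samples was amplified through 2 rounds from 100 ng and hybridised to Affymetrix rat arrays, per the labels' protocols. What the authors deposited is a linear ratio per probe set and array. RMA values of all 20 arrays were divided by their median in that probe set, per the file headers, which also give as expressed the probe sets called present on 10 of 20 arrays. RMA and MAS5 appear in the submitters' processing notes without versions; no source used here gives the chip definition. The median was 1 within 0.001 for 31071 of 31099 probe sets, and the authors' group averages equalled geometric means of the arrays within 0.00094.

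Ratios were put on a log2 scale and fitted with limma 3.58.1 (R 4.3.3), 1 mean per group, 16 residual degrees of freedom, with Benjamini-Hochberg adjustment over all 31042 probe sets other than the 57 controls. The fit was tested on simulated data with independent noise on each array. That test does not cover the joint deviations of same-numbered arrays or array-wide shifts with coculture. The number of arrays limits the precision. Symbols were updated through Entrez identifiers of RefSeq GRCr8, which changed 3 genes, Stx4 and Stx5 among them; 5 probe sets carry the suffix a and 1 the suffix s, which can mark shared transcripts. Members, roles and lists were chosen with earlier results of these data known. Named are the up to 8 largest called rises and falls of each coculture and time effect (5 for the difference between them), a set of well-known presynaptic genes, further probe sets of a named gene, and role groups of up to 4 genes. Cplx2 and Syt12, the changes of Rab3b over time, and members named only to complete a count were chosen after their values were seen. The values of 3 member genes are not reported here, though they remain in all counts.

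The replicate numbers come from the labels. Deviations from group means correlated at 0.272 or more in all 30 same-numbered pairs (median 0.547, against -0.227 for other pairs), and for 17 of 20 arrays the best match was one with its own number, so the numbers were taken to pair the samples. The alternatives were the block (fixed or random), only the groups compared, a robust prior, expressed probe sets only, centring, cyclic loess, the hybridisation covariate, a 1.5-fold minimum, 1 mean per gene and each array left out. Leaving out the 3 arrays of widest spread or all arrays numbered 5, and pairs of these settings, were added after seeing the data.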

Additional observations from a re-analysis of the deposited data

Results flagged for a closer look

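Each value here is the deposited ratio of 1 array that lay far from the other 4 of its group by Dixon's test at the 95% level. The test covered 53 probe sets. Members named only to complete a count, which were Syngr3, Syt6, Stxbp3, Stx5, Stx8, Stx12, Stx18 and Vamp4, were not tested. Chance marks about 1 in 20 groups. Of 212 groups tested 46 held such an array, and in 42 of them it was replicate 5. The low values on control replicate 5 at 24 h were 0.598 for Dnm1 1368292_at, 0.676 for Sh3gl2 1389550_at, 0.768 for Sncb 1371568_at, 0.692 for Sv2a 1368682_at, 0.713 for Synj1 1370070_at and 0.908 for Synj2bp 1368040_at. The low values on cocultured replicate 5 at 24 h were 0.66 for Cplx1 1369811_at, 0.388 for Cplx1 1398357_at, 0.557 for Dnm1 1368292_at, 0.216 for Nsf 1369690_at, 0.297 for Nsf 1372528_at and 0.478 for Rab3c 1387147_at. Further low values on cocultured replicate 5 at 24 h were 0.36 for Sh3gl2 1389550_at, 0.596 for Slc17a5 1376605_at, 0.56 for Snap25 1387073_at, 0.448 for Sncb 1371568_at and 0.576 for Sv2a 1383399_at. Further low values on cocultured replicate 5 at 24 h were 0.326 for Syn2 1369482_a_at, 0.657 for Syn2 1388811_at, 0.522 for Synj1 1370070_at, 0.525 for Synj1 1388586_at and 0.468 for Synj2bp 1368038_at. The low values on control replicate 5 at 96 h were 0.834 for Cplx1 1398357_at, 0.734 for Dnm1 1368292_at, 0.739 for Nsf 1369689_at, 0.742 for Nsf 1372528_at and 0.819 for Sh3gl2 1389550_at. Further low values on control replicate 5 at 96 h were 0.871 for Sv2a 1368682_at, 0.844 for Synj1 1370070_at, 0.97 for Synj2bp 1368038_at, 1.10 for Syt12 1398099_at and 0.962 for Vamp2 1369974_at. The low values on cocultured replicate 5 at 96 h were 0.557 for Dnm1 1368292_at, 0.411 for Nsf 1372528_at, 0.639 for Rab3a 1391434_at, 0.844 for Rab3b 1370061_at, 0.625 for Snap25 1387073_at and 0.384 for Sv2a 1368682_at. Further low values on cocultured replicate 5 at 96 h were 0.49 for Sv2a 1383399_at, 0.549 for Synj1 1370070_at and 0.629 for Synj1 1388586_at. Cocultured replicate 5 at 24 h was high for Syt12, at 1.22. The arrays of other numbers were cocultured replicate 4 at 24 h for Slc17a6 (0.442), control replicate 2 at 96 h for Slc17a5 (0.785), cocultured replicate 1 at 24 h for Syt4 1375877_at (0.911), all low, and cocultured replicate 3 at 96 h for Syn3 1372926_at (1.09), which was high. The calls without the 4 arrays numbered 5 are given with the other settings, and no cause of the replicate's position was tested.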

How the results depend on the processing

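Counts below are of the 76 members called in either direction, 3 for coculture at 24 h, 37 at 96 h, 1 for time in controls, 0 for time in cocultures and 0 for the difference between the coculture effects. They show how the calls depend on the setting. Where no share of expressed probe sets is given above for a setting, they do not show whether members differ from other probe sets. With the replicate number as a fixed block they were 41, 60, 6, 10 and 4, and as a random block 38, 59, 4 and 5 for the first 4; the block ended none of the calls made without it, and members it added that are not given beside a result stand only in these counts. The hybridisation covariate gave 6, 15, 3 and 11, the covariate with centred arrays 7, 12, 4 and 12, and the covariate with the block 0, 0, 4 and 1. Centring with the block gave 34 at 24 h, 5 for time in controls and 17 for time in cocultures. Without the 3 arrays of widest spread there were 10 calls at 24 h, 3 for time in controls and 2 for time in cocultures, and without the 4 arrays numbered 5 there were 29, 3 and 2, with 53 at 96 h. At 24 h only the groups compared gave 1 call, expressed probe sets only 6, centred arrays 7 and 1 mean per gene 7. For time in controls 1 mean per gene gave 2 calls. For time in cocultures expressed probe sets only, centring, cyclic loess and 1 mean per gene gave 1 call each. For the difference between the coculture effects, a fit of only the groups compared holds the same 4 groups and was not run.

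With each array left out in turn the calls ranged from 1 to 13 at 24 h, the lowest without cocultured replicate 1 or control replicate 2 or 3 at 24 h and the highest without control replicate 5 at 24 h. They ranged from 23 (without control replicate 4 at 96 h) to 46 (without cocultured replicate 5 at 24 h) at 96 h, from 0 to 3 for time in controls, from 0 to 1 for time in cocultures and from 0 to 0 for the difference. Of the 32 falls at 96 h, 21 stayed called without control replicate 4 at 96 h. Without cocultured replicate 5 at 96 h 21 stayed called too. Members named only to complete a count can be among the losses.

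At 96 h some changes reversed. With the covariate they were 0.14 and 0.67 for Nsf 1369689_at and 1372528_at, 0.59 for Stx1a 1387360_at, -0.075 for Sv2c and 0.12 for Vamp2. With the covariate and centred arrays they were 0.10 and 0.62 for the same Nsf probe sets, 0.55 for Stx1a, -0.12 for Sv2c, -0.028 for Syt11 and 0.075 for Vamp2. With the covariate and the block they were 1.14 for Nsf 1369689_at, 0.56 for Pclo, -0.053 for Syt11, 0.18 for Syt12, 0.31 for Syt4 1387662_at and 0.030 for Vamp2. Cyclic loess turned Synj1 1370070_at to 0.28. The cause was not tested. Signal over background is unknown for these ratios.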
